A study of Drosophila melanogaster with 2 samples.

Results

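The HSP70 chaperone genes of Drosophila melanogaster were examined for the signal of dBigH1 over input DNA in testes. Their 10 members were taken by symbol from a gene table with 15421 listed genes: the 6 near-identical inducible copies Hsp70Aa, Hsp70Ab, Hsp70Ba, Hsp70Bb, Hsp70Bbb and Hsp70Bc, the single inducible gene Hsp68, and the constitutive genes Hsc70-3, Hsc70-4 and Hsc70-5. For 4 of the copies the table gave a joined pair of symbols, and the copy was identified by its FlyBase gene ID and description. dBigH1 is the linker histone H1 variant of the germline. It was immunoprecipitated with an anti-dBigH1 antibody from chromatin of whole testes of adult w1118 males, a white-eyed laboratory stock, and set against input DNA of the same tissue and stock, for which no antibody was used.

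Each side of the comparison consists of 1 library, the dBigH1 ChIP and the input, without replicates, and no p-value was computed. Testes (2000 dissected, sonicated in pools of 1000, accessory glands removed) hold germline and somatic cells together, and fewer cells with dBigH1 cannot be told apart from less dBigH1 per cell. The files hold DNA signal only, so the tissue label was not checked against expressed markers. X-linked genes had a median RPKM (reads per kb of a gene and per unit of library size) of 0.511 of that of the arms 2L, 2R, 3L and 3R in the dBigH1 library and 0.552 in input, where males carry a single X. The dBigH1 library held 2864636 reads and the input library 12747726.

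HSP70 proteins bind unfolded stretches of other proteins and release them through cycles of ATP binding and hydrolysis, helped by J-domain partners and nucleotide exchange factors. In flies the Hsp70 genes are nearly silent without stress and are switched on by the heat shock factor Hsf, from promoters that carry GAGA factor and a paused RNA polymerase II. The Hsc70 genes serve unstressed cells: Hsc70-4 encodes the main cytosolic protein, Hsc70-3 the protein of the endoplasmic reticulum and Hsc70-5 the mitochondrial one. The contrast between genes kept ready for heat shock and genes in constant use is the comparison made here.

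All coordinates are of build dm3. Hsp70Aa (FBgn0013275, 3R, 7779885 to 7782266) and Hsp70Ab (FBgn0013276, 3R, 7784257 to 7786631) form the 87A pair, which lies on opposite strands with 1990 bp between the genes. The 87C group lies 504 kb further along the arm. It consists of Hsp70Ba (FBgn0013277, 8291026 to 8293500) and, after a gap of 34.7 kb, Hsp70Bbb (FBgn0051354, 8328232 to 8330822), Hsp70Bb (FBgn0013278, 8331515 to 8334105) and Hsp70Bc (FBgn0013279, 8334798 to 8337183) in tandem, 692 bp apart. Hsp68 (FBgn0001230, 3R, 19880802 to 19883029) and Hsc70-4 (FBgn0001219, 3R, 11068370 to 11072336) stand alone on the same arm. Hsc70-3 (FBgn0001218, 11695729 to 11701212) is X-linked, and Hsc70-5 (FBgn0001220, 10140103 to 10143697) is on 2R. Only Hsp70Ab and Hsp68 overlapped another listed gene, CG3281 by 27 bp and CG6000 by 21 bp.

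The 6 inducible copies carried more dBigH1 reads for their input than the constitutive genes did. Summed over the copies there were 318 dBigH1 reads against 1952 input reads, and over Hsc70-3, Hsc70-4 and Hsc70-5 there were 123 dBigH1 reads against 1277 input reads. The ratio of dBigH1 to input was 1.69-fold higher for the copies (95% conditional exact interval of the odds ratio 1.35 to 2.12), a difference of 0.76 on the log2 scale (0.44 to 1.09). This comparison needs no scaling between libraries. If each read was counted once, the sums do not depend on how reads were divided among near-identical copies, but the sources used here do not say how reads with several matches were treated. If such reads were counted at every match, the summed reads are not distinct and the interval is too narrow. It covers counting error only, since reads without molecular identifiers are not independent molecules.

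The summed copies had 7.50 RPKM in the dBigH1 library and 10.3 RPKM in input, and the summed constitutive genes had 3.29 RPKM in dBigH1 and 7.68 RPKM in input. The constitutive sum includes the X-linked Hsc70-3, and the median X-linked gene had 2.17 RPKM in dBigH1 and 4.74 RPKM in input. The median gene of the autosomal arms had 4.25 RPKM in dBigH1 and 8.60 RPKM in input. The copies were thus above that gene in both libraries, and each of the 6 was, as the plot of RPKM by member shows. The copies were not depleted in input.

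**Figure D1:**
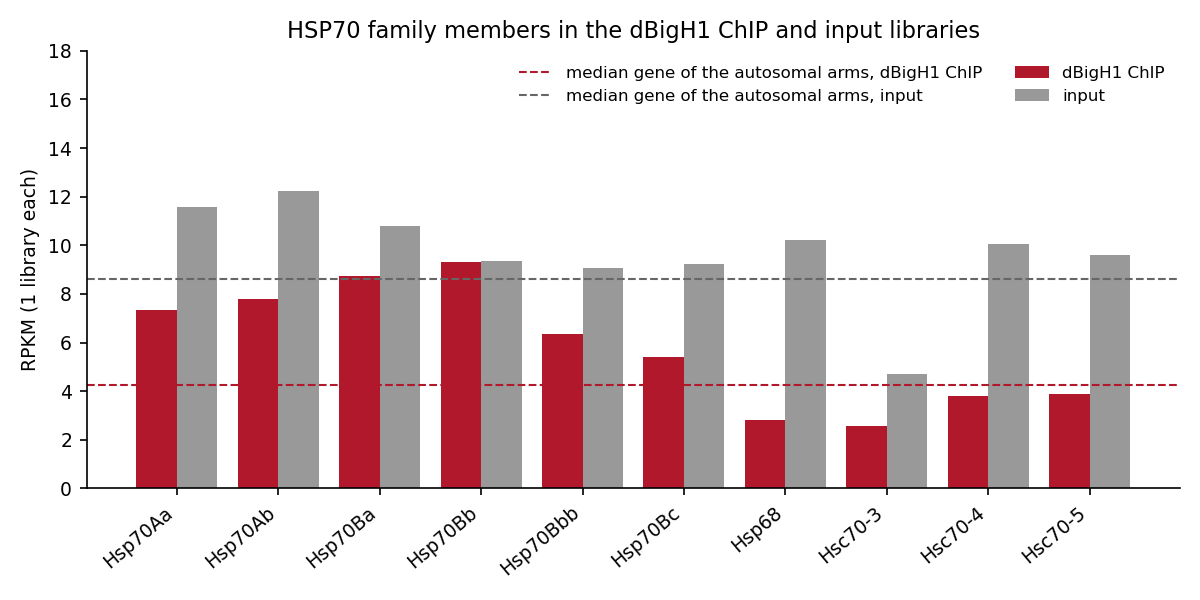
RPKM of each member in the dBigH1 ChIP library (red bars) and the input library (grey bars), 1 library each, with dashed lines at the median gene of the autosomal arms (4.25 RPKM in dBigH1, 8.60 RPKM in input). All 6 Hsp70 copies stand above both lines, and Hsp68 and the 3 constitutive genes stand below the dBigH1 line. Of these, Hsc70-3 is X-linked, and at 2.55 RPKM in dBigH1 it stands above the median X-linked gene (2.17 RPKM).

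For single genes the read ratio, after division by library totals, is given relative to the median gene of the table, which is 0 on the log2 scale. That gene itself lay at -1.005 when only library totals were used, and every value below is relative to it. Summed over listed genes, some of which overlap, reads made up 41.6% of the dBigH1 library and 63.4% of the input library. The part of this difference in the shift was not tested. A 95% Clopper-Pearson interval for the dBigH1 share of the reads accompanies each ratio. The summed copies were at 0.54 (0.37 to 0.71), or 1.45-fold above the median gene, although on library totals alone the value was -0.46. The summed constitutive genes were at -0.22 (-0.50 to 0.05), an interval that spans the median gene.

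Among the 87C copies, Hsp70Bb was the highest of all members. It had 69 dBigH1 reads against 309 input reads, or 9.30 RPKM in dBigH1 and 9.36 RPKM in input, and its log2 read ratio was 0.995 (0.60 to 1.38). The gene was thus level per kb between the libraries, unlike the median gene of the arms. Hsp70Ba had 62 dBigH1 reads against 340 input reads (8.74 RPKM in dBigH1, 10.8 RPKM in input), with a ratio of 0.70 (0.29 to 1.10). Hsp70Bbb had 47 dBigH1 reads against 300 input reads (6.33 RPKM in dBigH1, 9.08 RPKM in input). Its ratio was 0.48, with a lower bound of 0.0084 that barely cleared the median gene, and an upper bound of 0.93. Hsp70Bc, the last copy of the tandem, was the lowest of the 6, with 37 dBigH1 reads against 281 input reads (5.41 RPKM in dBigH1, 9.24 RPKM in input). Its ratio of 0.23 (-0.30 to 0.73) could not be told from the median gene at this depth.

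The 87A pair was nearly identical in both libraries. Hsp70Aa had 50 dBigH1 reads against 352 input reads (7.33 RPKM in dBigH1, 11.6 RPKM in input), with a ratio of 0.34 (-0.11 to 0.77). Hsp70Ab had 53 dBigH1 reads against 370 input reads (7.79 RPKM in dBigH1, 12.2 RPKM in input), with a ratio of 0.35 (-0.09 to 0.77). Neither interval excluded the median gene alone, while their sum of 103 dBigH1 against 722 input reads gave 0.35 (0.04 to 0.65), although the deposited MAnorm score put both under the median gene. The 87C sum of 215 dBigH1 against 1230 input reads gave 0.64 (0.43 to 0.85). The difference of 87C minus 87A was 0.29 (-0.08 to 0.67), which counting error covers. Each group on its own lay above the constitutive sum, the 87A pair by 0.57 (0.15 to 0.98) and the 87C copies by 0.86 (0.51 to 1.21).

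Differences between single copies are uncertain, because reads from one copy can align to another. The widest gap, between the adjacent Hsp70Bb and Hsp70Bc and picked after the values were seen, was 0.76 (0.11 to 1.43 for counting error alone). In the order of ratios, Hsp70Bb, Hsp70Ba, Hsp70Bbb, Hsp70Ab, Hsp70Aa, Hsp70Bc, Hsc70-3, Hsc70-5, Hsc70-4 and Hsp68, the intervals of all neighbours overlapped.

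**Figure D2:**
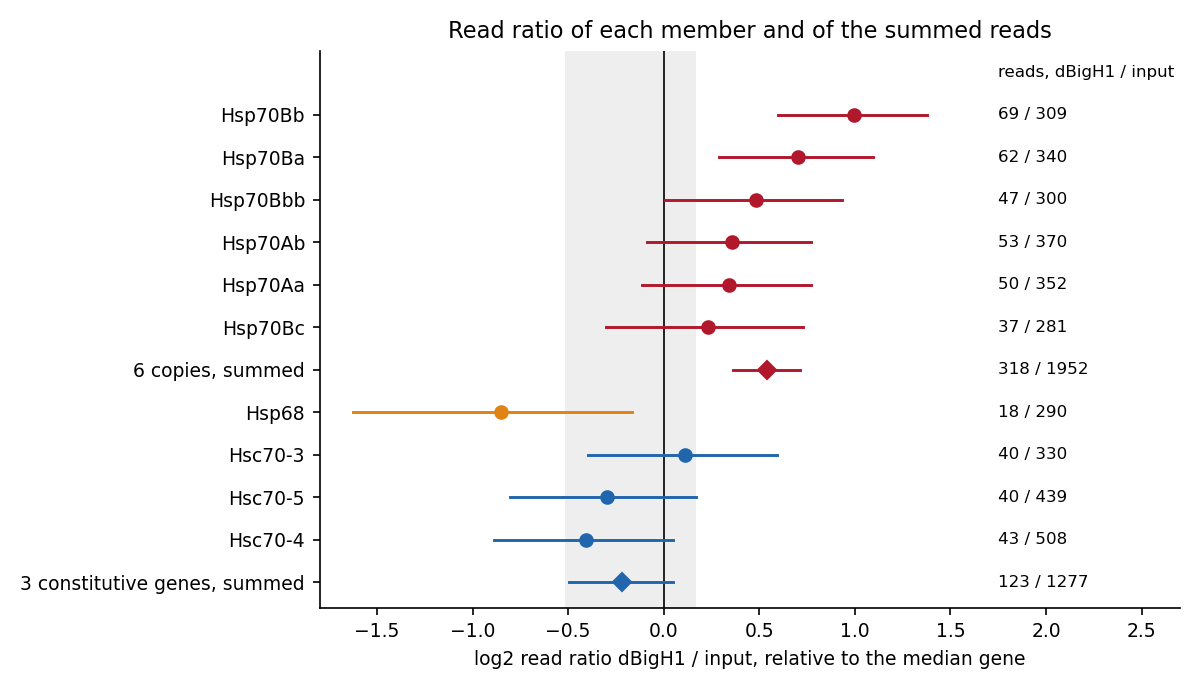
Log2 read ratio of dBigH1 over input relative to the median gene (line at 0) for each member (circles) and for summed reads (diamonds), with 95% Clopper-Pearson intervals and the reads in both libraries; grey marks the middle quartiles of non-overlapping genes of 1500 to 3500 bp. The summed copies lie at 0.54 and the summed constitutive genes at -0.22; the MAnorm score puts Hsp70Aa and Hsp70Ab below the median gene, and centring on library totals moves all values by -1.005.

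Hsp68 is induced by heat like the Hsp70 copies but is a single gene with its own sequence, and it lay at the other end of the family. It had 18 dBigH1 reads against 290 input reads (2.82 RPKM in dBigH1, 10.2 RPKM in input). Its ratio of -0.85 (-1.63 to -0.17) was the lowest of the 10 and wholly below the median gene. The summed copies exceeded Hsp68 by 1.39 (0.68 to 2.19), a ratio 2.62-fold higher (1.60 to 4.56). Hsp68 and the constitutive sum could not be told apart, with a difference of constitutive minus Hsp68 of 0.63 (-0.11 to 1.46). The members at both ends of the order are thus heat-inducible genes.

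Each constitutive gene spanned the median gene. The cytosolic Hsc70-4 had 43 dBigH1 reads against 508 input reads (3.78 RPKM in dBigH1, 10.05 RPKM in input) and a ratio of -0.40 (-0.89 to 0.05). The mitochondrial Hsc70-5 had 40 dBigH1 reads against 439 input reads (3.88 RPKM in dBigH1, 9.58 RPKM in input) and a ratio of -0.30 (-0.80 to 0.17). The copies were above Hsc70-4 by 0.94 (0.46 to 1.46) and above Hsc70-5 by 0.84 (0.33 to 1.37). The X-linked Hsc70-3 had 40 dBigH1 reads against 330 input reads (2.55 RPKM in dBigH1, 4.72 RPKM in input) and a ratio of 0.11 (-0.40 to 0.59). Its RPKM was lower than that of the other members in both libraries, as for other genes of the single X. The copies exceeded Hsc70-3 by 0.43 with an interval of -0.08 to 0.97, so this difference was not resolved at this depth.

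Counts of members were read against the whole table. A read ratio at least 1.5-fold above the median gene was found for 2 members, Hsp70Bb and Hsp70Ba, against 16.2% of all listed genes. At least 1.5-fold below it was 1 member, Hsp68, against 17.3%. Intervals lay wholly above the median gene for 3 members, the 87C copies Hsp70Ba, Hsp70Bb and Hsp70Bbb, against 17.9% of genes, and wholly below for Hsp68, against 9.41%. With 2 of 10 and 1 of 10, the shares past the fold were not far from the background.

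Genes close to the copies in length (2375 to 2591 bp) were used as a second background, which includes the copies other than Hsp70Ab. Among 2657 genes of 1500 to 3500 bp that overlapped no other gene, the median was -0.17, 7.30% lay 1.5-fold or more above the median gene of the table, 21.2% lay 1.5-fold or more below it, and 37.2% lay above it at all. Their intervals lay wholly above it for 7.60% and wholly below it for 14.3%. All 6 copies lay above the median gene, but they share sequence and reads and are not 6 separate observations. Of these genes, 78.3% had a lower ratio than Hsp70Bc, the lowest copy, and 97.8% had a lower ratio than Hsp70Bb. For Hsp68 that share was 11.2%, and for Hsc70-4, Hsc70-5 and Hsc70-3, which are longer than the window, it was 32.2%, 40.1% and 71.1%.

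**Figure D3:**
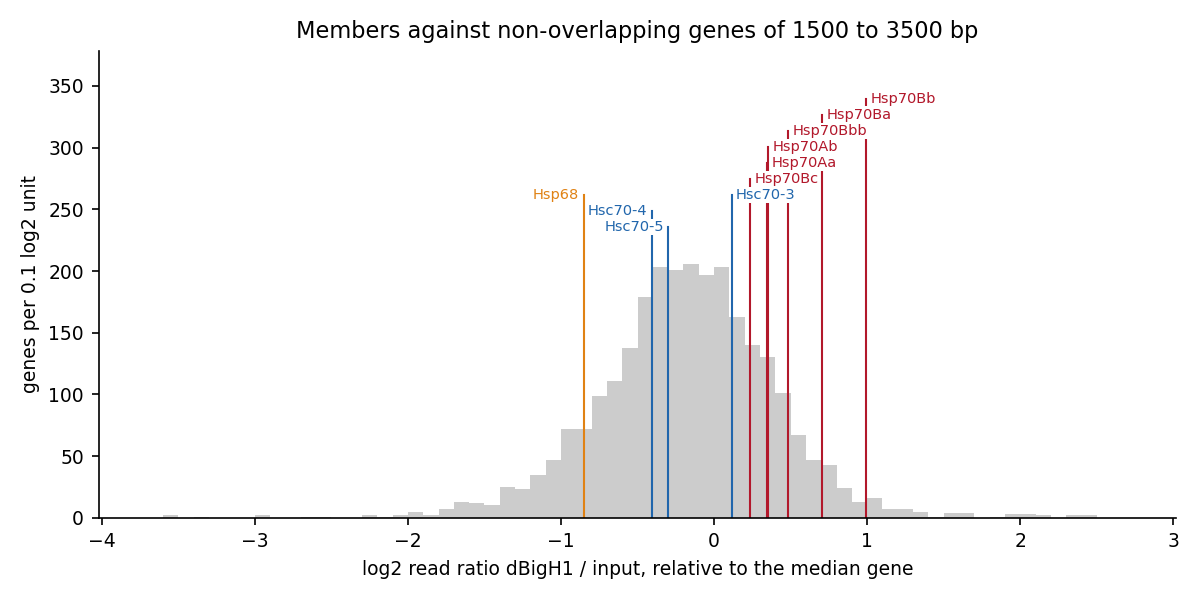
Histogram of the log2 read ratio (relative to the median gene of the table) of 2657 non-overlapping genes of 1500 to 3500 bp, with vertical lines at the copies (red), Hsp68 (orange) and the constitutive genes (blue); line heights only separate the labels. The copies lie on the upper flank, from 0.23 to 0.995, and Hsp68 on the lower flank at -0.85; centring on library totals moves all values by -1.005.

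The median ratio of the single copies, 0.35 at 87A and 0.59 at 87C, was above the median of the genes around them. These medians weigh genes equally. Summed reads of the neighbours, where long genes such as Cad87A weigh most, were not compared. At 87A the 10 nearest listed genes, 5 on each side, had a median ratio of -0.17, and 3 lay above the median gene. They ran from -0.55 for CG12213 to 0.67 for CG34307 (-0.31 to 1.53, on 13 dBigH1 reads). CG34307 and CG14731 lie within Cad87A, so the 10 are not separate observations. Nor are all of them close, with CG6971 60866 bp, CG34307 55744 bp and CG14731 20520 bp from the copies. CG31211, which lies 125 bp from Hsp70Aa, had 57 dBigH1 reads against 552 input reads and a ratio of -0.12 (-0.54 to 0.28). On the other side CG3281, whose end overlaps that of Hsp70Ab, was at -0.23 (-0.97 to 0.43), and aur, the gene of the mitotic Aurora kinase, was at -0.33 (-1.05 to 0.31). Only the 55618 bp gene Cad87A, a cadherin gene, had an interval wholly above the median gene, at 0.36 (0.25 to 0.47), which is close to the values of the 87A pair.

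At 87C the 10 nearest flanking genes had a median of -0.05, from -0.49 for the neuropeptide gene hug to 0.31 for CG5608, and 5 lay above the median gene. These too are not all separate or close. The gene hug lies within Octbeta3R, mir-284 had 2 dBigH1 reads, and Vha55 lies 112301 bp from the copies. CG5608, only 6 bp from Hsp70Ba, had 39 dBigH1 reads against 281 input reads and a ratio of 0.31 (-0.21 to 0.80). On the other side the octopamine receptor gene Octbeta3R, 109 bp from Hsp70Bc, was at 0.16 (0.01 to 0.31). It and Octbeta2R, at 0.26 (0.13 to 0.39), were the 2 flanking genes at 87C with intervals wholly above the median gene. Both are long genes with many reads, which narrows their intervals.

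The highest value at either locus belonged to the 1 listed gene between the 87C copies, the alphagamma-element:CR32865 (FBgn0052865, 8301058 to 8303989). Alphagamma elements are noncoding repeats of 87C whose transcription is driven by a promoter related to that of Hsp70 and is induced by heat. The element had 85 dBigH1 reads against 260 input reads, or 10.1 RPKM in dBigH1 and 6.96 RPKM in input. Its ratio was 1.55 (1.17 to 1.904), above Hsp70Bb with overlapping intervals. Since it is a repeat, reads of other copies may be counted in it, and their part in the value was not tested.

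**Figure D4:**
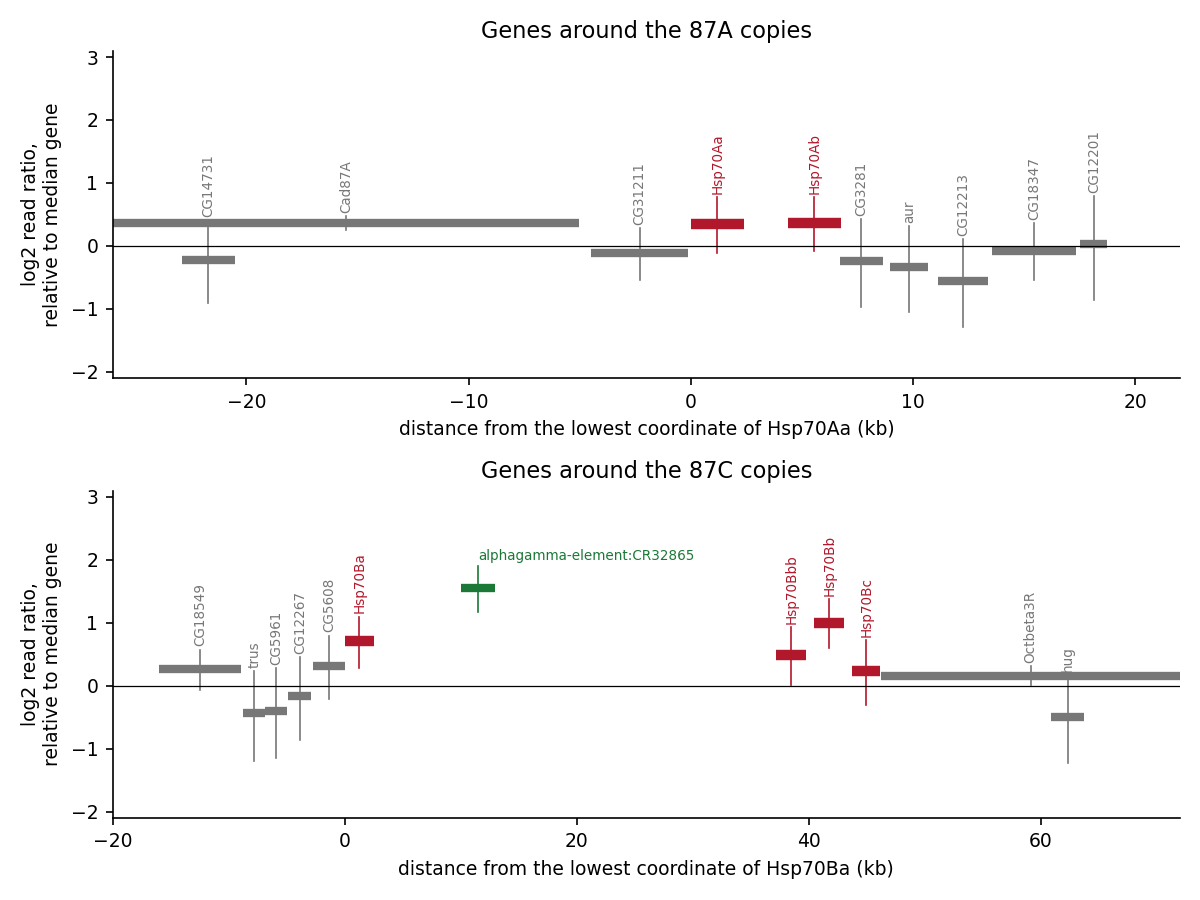
Log2 read ratio relative to the median gene (y) of listed genes around the 87A copies (top) and 87C copies (bottom) by distance in kb from the lowest coordinate of Hsp70Aa or Hsp70Ba; horizontal bars span the genes, vertical lines are 95% intervals, and genes running past the panel are cropped. The copies (red) lie at 0.23 to 0.995, the alphagamma element (green) at 1.55 and the flanking genes (grey) have medians of -0.17 at 87A and -0.05 at 87C; centring on library totals moves all values by -1.005.

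By read ratio, 6 lists of other chaperone-system genes and of regulators that act at the Hsp70 promoter had medians of -0.64 to -0.07. The regulators gave the -0.07, and the highest median of the other lists was -0.21. The non-overlapping genes of 1500 to 3500 bp had a median of -0.17. Counts at 1.5-fold are set against 16.2% above and 17.3% below among all listed genes, and 7.30% above and 21.2% below in that length window. Genes of these lists run from 584 bp (spt4) to 91611 bp (Parp), so many lie outside that window. The 4 remaining HSP70 family genes had a median of -0.36, with none above and 2 below at that fold, Hsc70-2 at -0.71 (-1.42 to -0.07) and CG2918 at -0.85 (-1.62 to -0.16). Hsc70-1 had 46 dBigH1 reads against 413 input reads and a ratio of -0.01 (-0.48 to 0.43), the highest of these 4. Among 7 HSP90 and HSP60 chaperone genes the median was -0.64, with none above (16.2% of all listed genes) and 4 below (17.3%) at 1.5-fold. Hsp83, the cytosolic HSP90 that is abundant without stress and further induced by heat, was at -0.50 (-0.999 to -0.04). Hsp60D was the lowest at -0.997 (-2.02 to -0.13) and Hsp60C the highest at -0.15 (-0.52 to 0.21).

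The small heat shock genes, which are also heat-inducible in part, had a median below that of the Hsp70 copies. Of 11, none was at least 1.5-fold above and 3 were at least 1.5-fold below, with a median of -0.21, and no interval excluded the median gene. The shares among all listed genes were 16.2% above and 17.3% below, so the count below lay near the background. In the length window 21.2% lay below, but most of these genes are shorter than that window. They ran from CG4461 at -1.26 (-2.91 to 0.01) to CG13133 at 0.54 (-0.32 to 1.31). The copies had a median of 51.5 dBigH1 reads and the small heat shock genes 16, which leaves the intervals of the small heat shock genes wide. Of the classical members, Hsp23 was at 0.42 (-0.36 to 1.12) and Hsp27 at -0.17 (-1.05 to 0.59). Hsp22 was at -0.21 (-0.87 to 0.38) and Hsp26 at -0.89 (-2.05 to 0.07, on 9 dBigH1 reads).

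Partners of HSP70 lay on both sides of the median gene. Of 13 J-domain genes, whose proteins stimulate the HSP70 ATPase, none was at least 1.5-fold above and 5 were at least 1.5-fold below, with a median of -0.40, against 16.2% above and 17.3% below among all listed genes. By interval 3 genes lay wholly above and 3 wholly below the median gene, against 17.9% and 9.41% of all listed genes. Those above, mrj, Tpr2 and CG5001, are long (11051 to 18465 bp) and had 149 to 278 dBigH1 reads, which narrows their intervals. Those below, P58IPK, DnaJ-H and DnaJ-60, had 13 to 27 dBigH1 reads. The extremes of the 13 ratios were Tpr2 at 0.43 (0.23 to 0.62) and DnaJ-60 at -0.92 (-1.85 to -0.12). Of 6 co-chaperone genes 1 was above (16.2% of all listed genes) and 2 were below (17.3%) at that fold, with a median of -0.37. CHIP, a ubiquitin ligase that acts on HSP70 clients, had 42 dBigH1 reads against 200 input reads and a ratio of 0.91 (0.39 to 1.39). HIP, whose protein binds HSP70, was the lowest at -1.15 (-2.38 to -0.13), on 8 dBigH1 reads. HIP-R, which shares a joined symbol with HIP, was at -0.65 (-1.63 to 0.19).

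The 12 genes whose products act at the Hsp70 promoter had a median of -0.07. At 1.5-fold 1 was above (16.2% of all listed genes) and 4 were below (17.3%). These genes run from 584 to 91611 bp, so the length window is not a matched background for them. Hsf, the heat shock factor, was at -0.05 (-0.47 to 0.34) and Trl, which encodes GAGA factor, at 0.14 (-0.08 to 0.36). Parp, a poly-ADP-ribose polymerase gene on a heterochromatin scaffold of 3R, was the highest at 1.23 (1.16 to 1.31), and the acetyltransferase gene Tip60 the lowest at -0.94 (-1.83 to -0.17). Tip60, HIP and CG2918 are X-linked, and X-linked genes had a median ratio of -0.12. Its part in these 3 values was not tested. No test was made between lists.

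**Figure D5:**
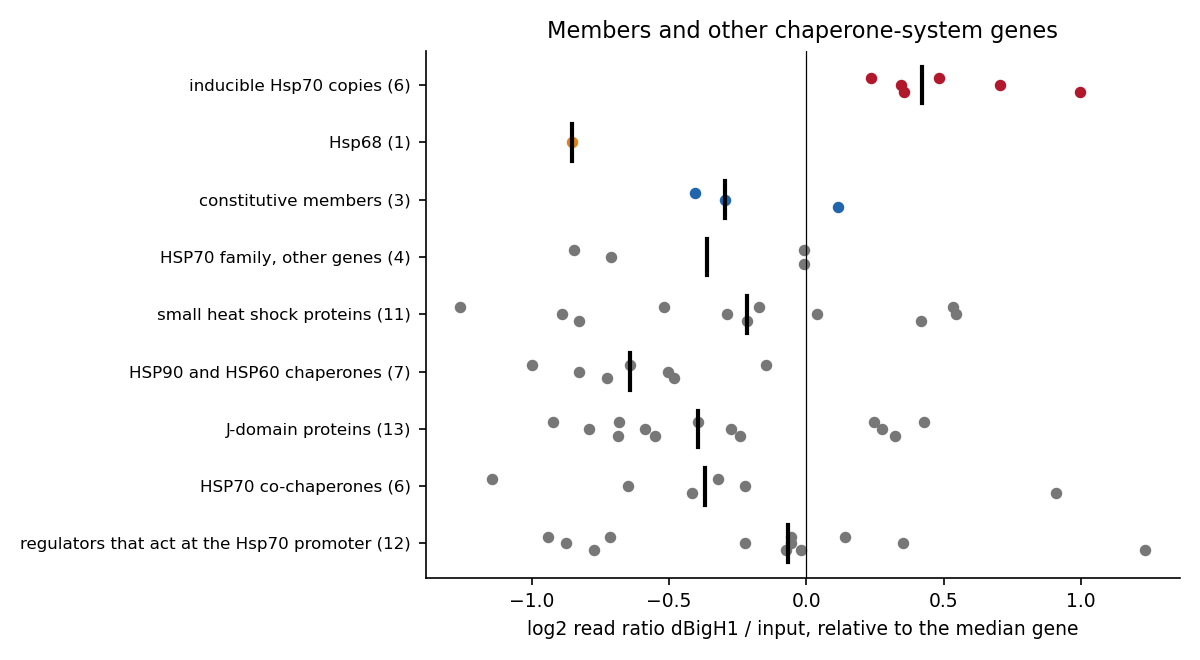
Log2 read ratio relative to the median gene for the members and for 6 lists of other chaperone-system genes and of regulators that act at the Hsp70 promoter. Each gene is 1 point, with the list median as a black bar and the number of genes in parentheses. The 6 copies have a median of 0.42, and the medians of the 6 lists lie between -0.64 and -0.07; centring on library totals moves all values by -1.005.

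Genes with the most similar pair of values were sought by distance in log2(RPKM + 1) over the 2 libraries. Nearest to the mean of the 6 copies were CG13239, CG7133 and CG13077, at distances of 0.01, 0.03 and 0.03. CG13239 had 7.44 RPKM in dBigH1 and 10.4 RPKM in input, on 15 dBigH1 reads. Nearest to the mean of the constitutive genes were CG31198, se and Obp58b, each at a distance of 0.01. CG31198 had 3.34 RPKM in dBigH1 and 7.76 RPKM in input. With 2 libraries, closeness of this kind is a description of levels.

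The column headed MAnorm in the authors' deposited table ordered the members differently. It behaves as a standardized score, with a mean near 0 and an SD of 0.999 over genes, and its median gene is at -0.08. In the authors' deposited table Hsc70-3 was the highest member at 0.45, followed by Hsp70Bb at 0.38 and Hsp70Bbb at 0.20. Hsp70Ba was at -0.06 and Hsp70Bc at -0.08 in the authors' deposited table, which is near the median gene. The 87A copies, above the median gene by read ratio, were below it in the authors' deposited table, at -0.41 for Hsp70Aa and -0.48 for Hsp70Ab. Hsc70-5, Hsc70-4 and Hsp68 kept the lowest places in the authors' deposited table, at -0.76, -1.001 and -1.27.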

How the data were processed

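ChIP-seq reads of dBigH1 and of input DNA from whole testes were compared per gene, with 1 library each. Per the labels' protocols, chromatin fragments of 200 to 500 bp gave libraries from 3.5 ng of DNA, size-selected to 300 to 350 bp, with 18 PCR cycles and single reads of 50 nt. The submitters' processing notes name build dm3 and the tools Bowtie2, CASAVA 1.9, R 2.15 and FastQC 0.10. Per the file headers, the authors deposited log2 RPKM values. After subtraction of 1 from the exponentiated values, 100% were whole reads within 0.01 read in both libraries, so they were read as log2(RPKM + 1). The deposited MAnorm column was treated as a score. The sources used here do not state how reads were assigned to genes.

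Reads and totals were recovered with Python 3.11.15, numpy 2.4.6 and pandas 2.3.3, and intervals came from scipy 1.17.1, tested on simulated data. The simulated reads were independent counts around a known centre. That test therefore does not cover duplicate reads or reads shared among near-identical copies. No listed gene was without reads in either library, and 41.5% of genes overlapped another. Members, lists and alternatives were chosen with earlier results of these data known. Named genes are all members, the 5 nearest listed genes on each side of 87A and 87C and any between copies, genes overlapping a member, the 3 genes nearest in both libraries to each pool, and the extremes of each list. Other named genes, among them Hsf, Trl, Hsp83, Hsp22, Hsp23, Hsp26, Hsp27, HIP-R and Hsc70-2, were chosen after their values were seen. HIP and HIP-R share a joined symbol and were separated by ID. Sec63 is not analysed here.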

Additional observations from a re-analysis of the deposited data

How the results depend on the processing

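The difference of the copies minus the constitutive genes, 0.76, stayed above 0 in all 18 alternatives, from 0.32 to 0.89, including those with only the 87A or only the 87C copies, which were chosen after seeing the data. The value of 0.69 is a difference of median MAnorm scores and not of read ratios, and in the authors' deposited table Hsc70-3 (0.45) exceeded every copy (highest 0.38). The difference was 0.32 with a pseudocount of 5, which by construction shrinks ratios. Leaving out each member in turn gave 0.65 to 0.89. The summed copies, at 0.54, were at -0.46 with centring on library totals, 0.23 with a pseudocount of 5 and 0.01 (0.0149) as the median MAnorm score over the median gene, and the summed constitutive genes, at -0.22, were at -1.22 on library totals and -0.68 on the score; the cause of the shifts on the score was not tested. On library totals Hsp70Ba, Hsp70Bb and Hsp70Bbb were at -0.30, -0.0091 and -0.52. Genes at least 1.5-fold above the median gene numbered 2499, and 2665 were at least 1.5-fold below it, or 48.4% higher; on library totals 467 and 11838 were, or 3.80% higher. At 2-fold there were 1186 and 1042. Genes below numbered 1228 with at least 10 dBigH1 reads and 12 where both libraries had 5 RPKM or more, filters that by construction remove genes with low dBigH1 values. No paired analysis was possible because each group had 1 library. Depth limits single members, with 18 to 69 dBigH1 reads each.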
